A study of Mus musculus with 9 samples.

Results

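The genes described here are 30 genes of cholesterol synthesis, movement and efflux, among 38215 genes read from the RNA of bone marrow cells of C57BL/6J mice. They are textbook members of the pathway, chosen with earlier results of these libraries known. Abca1 was included because it was higher with sgZrsr2 in an earlier fit of the same libraries. All 30 were found, 29 by their symbol in the table and Msmo1 under its older symbol Sc4mol through its Ensembl identifier, and all 30 passed the filter on low counts that left 14944 genes. The 18 enzymes of synthesis form the largest group, beside 4 genes of sterol sensing and lipid desaturation, 2 of sterol movement inside cells and 6 of the LXR and efflux arm.

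Every mouse carried Jak2V617F, an activating change in the kinase Jak2 found in myeloproliferative neoplasms, and every mouse had received tamoxifen. The 5 EV mice have Jak2V617F alone as their genotype, and the labels do not spell out EV. The 4 sgZrsr2 mice have the genotype Jak2V617F-sgZrsr2, and the series describes them as having lost Zrsr2, a factor of the minor spliceosome. At the terminal time point LSK cells (lineage-negative, Sca1-positive, Kit-positive cells, the fraction with stem cells and multipotent progenitors) that expressed both GFP and mCherry were sorted. The labels do not give age, sex, the driver of a Cre recombinase, or the share of sorted cells with an edited Zrsr2 gene. Zrsr2 RNA was still present with sgZrsr2, at 31.7 to 44.4 CPM (counts scaled to library size with edgeR's TMM factors) against 50.6 to 62.2 CPM with EV.

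Cells make cholesterol from acetyl-CoA through mevalonate, squalene and lanosterol. When sterols in the endoplasmic reticulum are scarce, SREBP transcription factors are released from the INSIG proteins that hold them there, and switch on the enzymes of synthesis. When sterols are plentiful, their oxidised forms activate the nuclear receptors LXR, which switch on the exporters Abca1 and Abcg1, the apolipoprotein Apoe that accepts cholesterol, and Mylip, a ubiquitin ligase that marks lipoprotein receptors for degradation. In mouse blood-forming stem and progenitor cells Abca1, Abcg1 and Apoe are known as brakes on proliferation and myeloid output.

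Promoter sequences can be read apart from the levels, so the stretches with a match to known elements of these arms are given first. RefSeq windows on GRCm38.p6, from 250 bases before to 50 bases after a start site, were at hand for 23 of the 30 genes. The sterol regulatory element was searched as TCACNCCAC on both strands and was found in Hmgcs1, 137 bases before its start. It was in 1 of 15 synthesis enzymes with a window, where 1.44% of 27025 genes had a match. An LXR element of the kind called DR4, a pair of direct repeats with a spacer, was searched on both strands as GGTNA and GGTCA. The first base of each repeat was left free, so 5 bases lie between the letters searched, the spacer and that base. It matched in Abca1, the only match among the 5 LXR and efflux genes with a window, and at 1 of the start sites of Srebf1. These were 2 of the 23 members with a window, where 0.226% of all genes had a match. The letters of the DR4 search were chosen after the Abca1 window had been read, so the Abca1 match describes that sequence. Capitals mark the match in the following stretches, printed 5′ to 3′ along the gene.
Hmgcs1, chr13:119690184-119690252, plus strand: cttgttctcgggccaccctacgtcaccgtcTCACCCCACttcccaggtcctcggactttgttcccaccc
Abca1, chr4:53159918-53159992, minus strand: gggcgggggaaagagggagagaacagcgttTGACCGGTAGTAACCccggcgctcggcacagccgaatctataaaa
Srebf1, chr11:60210609-60210683, minus strand: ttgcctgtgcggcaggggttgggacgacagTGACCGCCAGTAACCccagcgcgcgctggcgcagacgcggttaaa

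The CCAAT box, bound by the factor NF-Y that is known to act together with SREBP, was read in the same windows. Searched as CCAAT on both strands, it was in the windows of 14 of 15 synthesis enzymes, all but Acat2, and in 1 of 5 LXR and efflux genes. Over all 27025 genes 41.1% had at least 1 match, and 42.7% of the 10505 tested genes with a window did. Genes with several start sites have several windows and so more chances of a match. The 100 bases before the start of Mvd and Mvk, enzymes of the mevalonate arm, show paired and tripled boxes on both strands, with CCAAT or its complement ATTGG in capitals.
Mvd, chr8:122443423-122443522, minus strand: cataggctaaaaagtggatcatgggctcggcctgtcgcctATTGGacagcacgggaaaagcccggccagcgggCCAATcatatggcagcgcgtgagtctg
Mvk, chr5:114444169-114444268, plus strand: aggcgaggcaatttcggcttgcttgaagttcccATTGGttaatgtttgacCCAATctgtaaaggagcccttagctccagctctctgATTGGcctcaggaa
These matches describe the letters of the windows and do not show that a factor was bound in LSK cells.

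**Figure D1:**
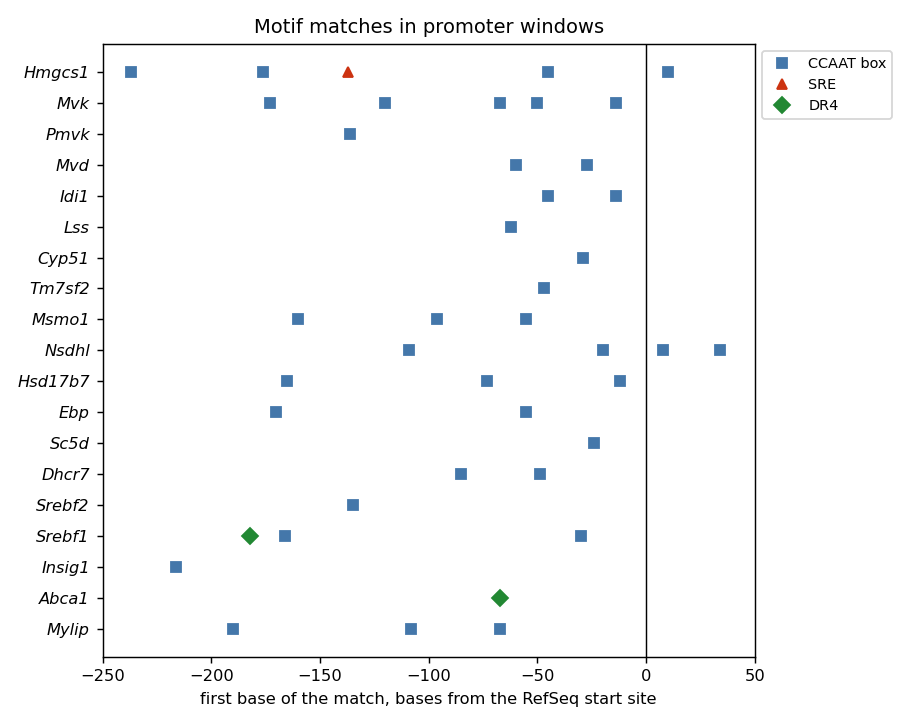
Position of the first base of each match to the CCAAT box (squares), the sterol regulatory element (SRE, triangle) and the LXR element DR4 (diamonds), in bases from a RefSeq start site, for the members with a match, with the matches of all start sites of a gene on its row. Most matches of the enzymes lie before the start; 14 of 15 enzymes with a window have a CCAAT box.

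The libraries held 23238264 to 45585531 expected counts, and the lowest count of a member in any library was 14, for Nr1h3. Kit was at 247 to 632 CPM, Cd34 at 544 to 705 CPM and Ly6a, which encodes Sca1, at 14.8 to 49.3 CPM, so the defining LSK genes were present in every library. EV mouse 5 and sgZrsr2 mice 3 and 5 stood apart in most of the early megakaryocyte and erythroid genes read. In this order Vwf was at 53.2, 91.2 and 85.3 CPM and Car1 at 25.4, 39.3 and 35.5 CPM, against at most 11.4 and 0.422 CPM in the other 6 libraries. The exceptions were Itga2b, Ppbp and Hbb-bt. Hbb-bt was highest in sgZrsr2 mice 1 and 2, at 46.2 and 42.3 CPM. It was at 8.06, 15.4 and 5.59 CPM in EV mouse 5 and sgZrsr2 mice 3 and 5. Itga2b was at 263 CPM in EV mouse 4 and 199 CPM in EV mouse 5. EV mouse 3 had the lowest scaling factor, 0.894, and was the lowest library for 22% of all genes tested and the highest for 20.2%. SgZrsr2 mouse 3 was as extreme, the lowest for 20.9% and the highest for 21%. The libraries of sgZrsr2 mice 1 and 2 differed by more than counting noise (chi-square 9.32 per degree of freedom, against 16.6 between EV mice 1 and 2) and were kept as separate mice as labelled. The libraries are replicates by their mouse numbers, and in bulk RNA fewer cells of a type and less RNA per cell cannot be told apart.

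Across all genes 0% of the 14944 tested passed edgeR's quasi-likelihood test at a threshold of 0.05 after Benjamini-Hochberg adjustment, so no member passed (adjusted p 0.714 to 0.984 over the 30 members). DESeq2's Wald test, run as an alternative, called 16 genes and 0 of the 30 members. At an unadjusted p under 0.05 edgeR had 1024 genes, 6.85% of those tested. Of the members 3 were below this level and lower with sgZrsr2 (Idi1, Sqle and Cyp51), where 2.98% of all genes were. A further 2 were higher (Abca1 and Apoe), where 3.87% of all genes were. The same contrast entered the choice of Abca1, and earlier results of it were known for the rest, so the fold changes that follow are given as a description with their standard errors (SE); a log2 difference is such a fold change, sgZrsr2 minus EV.

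**Figure D2:**
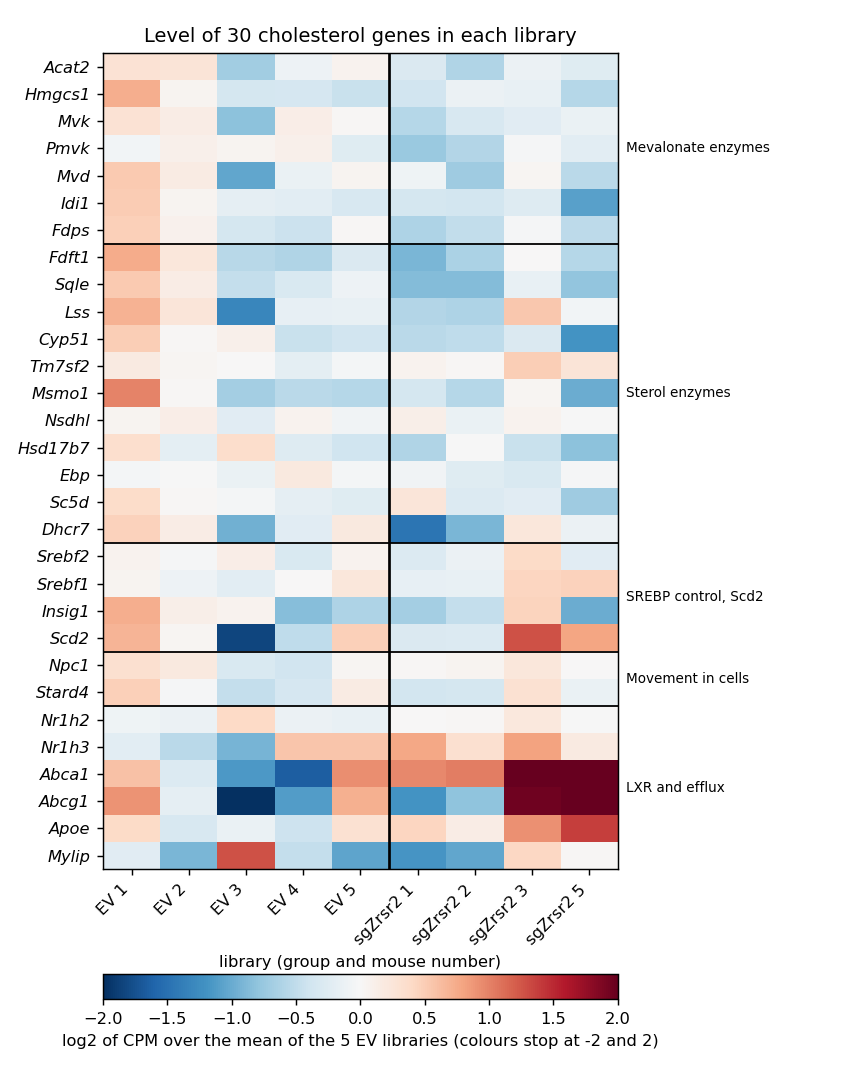
Level of each of the 30 genes (rows, grouped by role) in each of the 9 libraries (columns, EV left and sgZrsr2 right of the line), as log2 of CPM over the mean of the 5 EV libraries. EV mouse 1 is high for most enzymes, and sgZrsr2 mice 3 and 5 are high for Abca1, Abcg1 and Apoe.

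The mevalonate arm turns acetyl-CoA into farnesyl diphosphate. All 7 of its enzymes had a log2 fold change below 0 with sgZrsr2, from -0.49 to -0.29 with a median of -0.30, where 51.5% of all tested genes were below 0, 48.5% were above and the median of all was -0.01. Idi1 (ENSMUSG00000058258; chromosome 13, 8885501 to 8892451, plus strand), the isomerase that makes the reactive isoprene unit, was at 73.7, 54.0, 45.8, 44.97 and 41.7 CPM across EV mice 1 to 5. Across sgZrsr2 mice 1, 2, 3 and 5 it was at 40.6, 40.2, 43.4 and 24.5 CPM. The groups overlapped through sgZrsr2 mouse 3, and the log2 fold change was -0.49 (SE 0.21).

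Hmgcs1, the synthase that commits acetyl-CoA to the pathway, was at 94.0 CPM in EV mouse 1 and at 41.6 to 59.0 CPM in the other EV mice. With sgZrsr2 it was at 38.3 to 52.2 CPM, a range that lies within that of the EV mice other than mouse 1 except at its lower end. Fdps, which makes farnesyl diphosphate, was at 55.5 ± 14.3 CPM (SD, n = 5) with EV and 42.2 ± 8.46 CPM (SD, n = 4) with sgZrsr2, a log2 difference of -0.39 (SE 0.20). Pmvk, the phosphomevalonate kinase, was at 16.3 ± 1.58 and 12.7 ± 2.90 CPM, with a log2 difference of -0.36 (SE 0.18). The thiolase Acat2, the kinase Mvk and the decarboxylase Mvd differed by -0.30, -0.30 and -0.29 on the log2 scale, and their groups overlapped. In each of these 3 genes EV mouse 3 was the lowest of all 9 libraries, at 18.2, 6.42 and 4.80 CPM.

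The sterol arm joins farnesyl units into squalene, closes the ring to lanosterol and trims it to cholesterol. Of its 11 enzymes 9 had a log2 fold change below 0 and 2 above, with a median of -0.42. Sqle (ENSMUSG00000022351; chromosome 15, 59315077 to 59331192, plus strand), the epoxidase that is a rate-limiting step after squalene, was at 73.3, 56.1, 36.4, 41.2 and 47.2 CPM across EV mice 1 to 5. Its levels were 27.8, 27.8, 46.0 and 29.6 CPM across sgZrsr2 mice 1, 2, 3 and 5. Thus 3 of the 4 sgZrsr2 libraries lay below all EV libraries and mouse 3 lay among them, with a log2 difference of -0.63 (SE 0.23), the lowest of the 30 genes.

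Cyp51 (ENSMUSG00000001467; chromosome 5, 4081145 to 4104746, minus strand), the demethylase of lanosterol, was at 75.5, 54.9, 58.0, 39.8 and 41.5 CPM across EV mice 1 to 5. Across sgZrsr2 mice 1, 2, 3 and 5 it was at 37.1, 38.0, 44.1 and 23.6 CPM. Again only mouse 3 reached the EV range, and the log2 fold change was -0.59 (SE 0.22). Fdft1, the squalene synthase, had a log2 difference of -0.49 (SE 0.30), from 12.8 to 32.2 CPM in the EV group and 10.2 to 19.3 CPM with sgZrsr2. Without EV mouse 1 it was -0.22, and without sgZrsr2 mouse 3 it was -0.70.

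Dhcr7, the reductase of the last step, varied most among the enzymes within the sgZrsr2 group, relative to its mean, at 11.5, 16.9, 37.2 and 29.3 CPM in mice 1, 2, 3 and 5. With EV it was at 16.4 to 43.8 CPM, and the log2 fold change was -0.42 (SE 0.35). It ran from -0.20 without sgZrsr2 mouse 1 to -0.72 without sgZrsr2 mouse 3. It was -1.09 without EV mouse 5 and sgZrsr2 mice 3 and 5, a fit that keeps only sgZrsr2 mice 1 and 2. Lss, the cyclase that makes lanosterol, was at 35.7 CPM in EV mouse 1 and 8.92 CPM in EV mouse 3. Its log2 fold change of -0.10 (SE 0.36) turned to 0.14 without EV mouse 1, to 0.03 without sgZrsr2 mouse 1 and to 0.04 without sgZrsr2 mouse 2. Msmo1, the methyl oxidase, was at 41.2 CPM in EV mouse 1 and at 13.0 to 21.1 CPM in the other EV mice, against 10.4 to 21.4 CPM with sgZrsr2.

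The other late enzymes varied less. Hsd17b7, a ketoreductase, had a log2 difference of -0.44 (SE 0.23), Sc5d, a desaturase, one of -0.21 (SE 0.20), and Ebp, a sterol isomerase, one of -0.15 (SE 0.11). Nsdhl, a dehydrogenase that removes methyl groups, was at 15.7 ± 1.54 CPM in the EV group and 15.8 ± 1.17 CPM with sgZrsr2. Tm7sf2, a sterol reductase, was at 6.76 ± 0.622 and 7.88 ± 1.22 CPM, and its log2 difference of 0.22 (SE 0.18) was the highest of the 18 enzymes. Part of its reads are uncertain, since it overlaps Vps51 on the same strand and had fractional counts in every library.

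**Figure D3:**
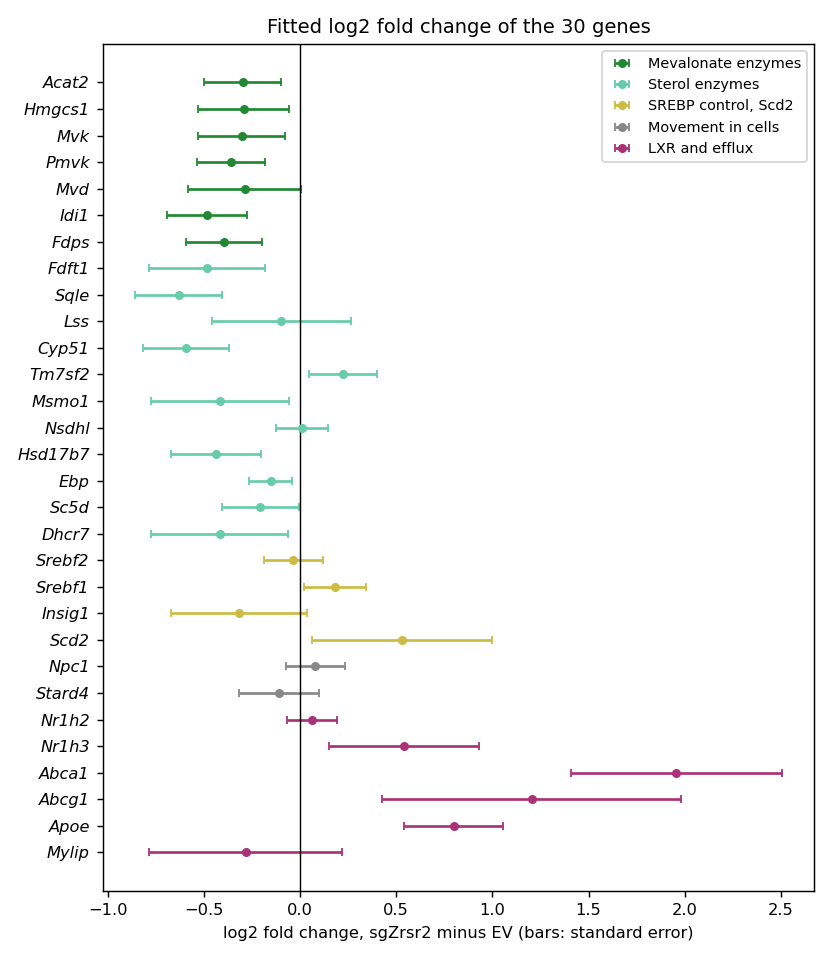
Log2 fold change of the 30 genes, sgZrsr2 minus EV, with its standard error, coloured by role. The mevalonate enzymes all lie below 0, 9 of 11 sterol enzymes lie below 0, and Abca1 lies highest at 1.96.

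The enzymes also differed between mice of the same group. EV mouse 1 was the highest of the 9 libraries for 13 of the 18 enzymes, while it was the highest for 7.29% of all genes tested. The mean log2 CPM of the 18 enzymes was 5.00, 4.67, 4.18, 4.38 and 4.42 across EV mice 1 to 5. Across sgZrsr2 mice 1, 2, 3 and 5 it was 4.14, 4.14, 4.54 and 4.12. So 3 of the 4 sgZrsr2 libraries lay below every EV library, though all 3 only just below EV mouse 3. SgZrsr2 mouse 3 lay above 3 EV libraries. Without EV mouse 1 the median log2 fold change of the 18 enzymes was -0.22 in place of -0.33, with 15 of 18 below 0 in place of 16. The same omission moved Hmgcs1 from -0.29 to -0.04, Msmo1 from -0.42 to -0.01, Mvd from -0.29 to -0.12 and Fdps from -0.39 to -0.25.

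The genes that sense sterols differed in direction. Srebf2, which encodes the SREBP that drives synthesis, was at 278 ± 31.4 CPM in the EV group and 271 ± 60.5 CPM with sgZrsr2, a log2 difference of -0.03 (SE 0.15). Its sign turned with library totals as the scaling (0.01). Srebf1, whose product drives fatty acid synthesis and which is itself an LXR target, was at 101 to 137 CPM with EV. With sgZrsr2 it was at 105 and 106 CPM in mice 1 and 2 and at 158 and 161 CPM in mice 3 and 5, above all EV mice. Insig1, the retention protein that is also a direct SREBP target, was at 115, 75.9, 73.4, 38.8 and 45.6 CPM across EV mice 1 to 5 and at 43.4, 50.2, 94.6 and 35.1 CPM across sgZrsr2 mice 1, 2, 3 and 5. Like most enzymes it was highest in EV mouse 1, and within the sgZrsr2 group highest in mouse 3. Its log2 fold change of -0.32 (SE 0.35) became -0.06 without EV mouse 1 and -0.70 without sgZrsr2 mouse 3.

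Scd2 (ENSMUSG00000025203; chromosome 19, 44293676 to 44306864, plus strand), a desaturase of fatty acids that SREBP and LXR both switch on, was at 383, 246, 67.1, 168 and 332 CPM across EV mice 1 to 5. Its levels were 195, 198, 578 and 412 CPM across sgZrsr2 mice 1, 2, 3 and 5. Mice 3 and 5 lay above all EV mice and mice 1 and 2 in the middle of them, so the log2 fold change of 0.53 has an SE of 0.47. Without EV mouse 5 and sgZrsr2 mice 3 and 5, the libraries high in Vwf and Car1, it was -0.12. Leaving out sgZrsr2 mouse 3 alone gave 0.17, and EV mouse 3 alone 0.29.

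Of the genes that move sterols inside cells, Npc1, which lets cholesterol out of lysosomes, was at 64.1 ± 13.4 CPM in the EV group and 67.7 ± 4.73 CPM with sgZrsr2. Stard4, a carrier of sterols between membranes that SREBP switches on, was at 68.2 ± 18.2 and 63.1 ± 14.9 CPM. Both log2 fold changes, 0.08 (SE 0.15) and -0.11 (SE 0.21), were smaller than their errors.

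In the efflux arm the receptors differed in level. Per kilobase of exon (GENCODE M21), Nr1h2, which encodes LXR beta, was at 44.9 CPM and Nr1h3, which encodes LXR alpha, at 0.332 CPM on average in the EV libraries. Nr1h2 was at 151 ± 26.6 CPM in the EV group and 157 ± 11.6 CPM with sgZrsr2, a log2 difference of 0.06 (SE 0.13). Nr1h3 rested on 14 to 60 counts per library and was at 0.436 to 1.22 CPM in the EV group and 0.946 to 1.46 CPM with sgZrsr2.

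Abca1 (ENSMUSG00000015243; chromosome 4, 53030787 to 53159895, minus strand), the exporter that loads cholesterol on apolipoproteins, was at 12.8, 7.01, 3.84, 2.71 and 16.1 CPM across EV mice 1 to 5. Its levels were 16.4, 17.3, 57.2 and 40.5 CPM across sgZrsr2 mice 1, 2, 3 and 5. There was no overlap between the groups, but sgZrsr2 mice 1 and 2 lay only just above EV mice 1 and 5, while mice 3 and 5 lay far above. Of all genes tested, 1.75% were higher with sgZrsr2 without overlap, and 3.06% did not overlap in either direction. Abca1 was the only one of the 30 members to be so, and it was chosen for its difference. Its log2 fold change was 1.96 (SE 0.55), and 1.37 without EV mouse 5 and sgZrsr2 mice 3 and 5.

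Abcg1 (ENSMUSG00000024030; chromosome 17, 31057698 to 31115777, plus strand), the exporter to mature high-density lipoprotein, was at 48.1, 22.7, 4.21, 11.8 and 41.9 CPM across EV mice 1 to 5. Its levels were 11.3, 14.7, 99.2 and 112 CPM across sgZrsr2 mice 1, 2, 3 and 5. Within the sgZrsr2 group it thus split into a low and a high pair, and the low pair lay inside the EV range. The log2 fold change of 1.203 (SE 0.78) became 0.70 without sgZrsr2 mouse 5, -0.72 without EV mouse 5 and sgZrsr2 mice 3 and 5, and -0.04 with limma-voom and sample quality weights.

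Apoe (ENSMUSG00000002985; chromosome 7, 19696109 to 19699166, minus strand) had the highest level of the 30 genes per kilobase of exon in the EV libraries, 63.8 CPM. It was at 178, 109, 125, 102 and 168 CPM across EV mice 1 to 5 and at 183, 151, 258 and 357 CPM across sgZrsr2 mice 1, 2, 3 and 5. Mice 1, 3 and 5 were above all EV mice and mouse 2 was among them. The log2 fold change was 0.80 (SE 0.26), and 0.39 without EV mouse 5 and sgZrsr2 mice 3 and 5. Mylip ran another way: it was at 101 CPM in EV mouse 3 and 20.3 to 36.1 CPM in the other EV mice, against 18.5, 20.4, 55.8 and 42.9 CPM across sgZrsr2 mice 1, 2, 3 and 5. Its log2 fold change of -0.28 (SE 0.50) became 0.34 without EV mouse 3.

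**Figure D4:**
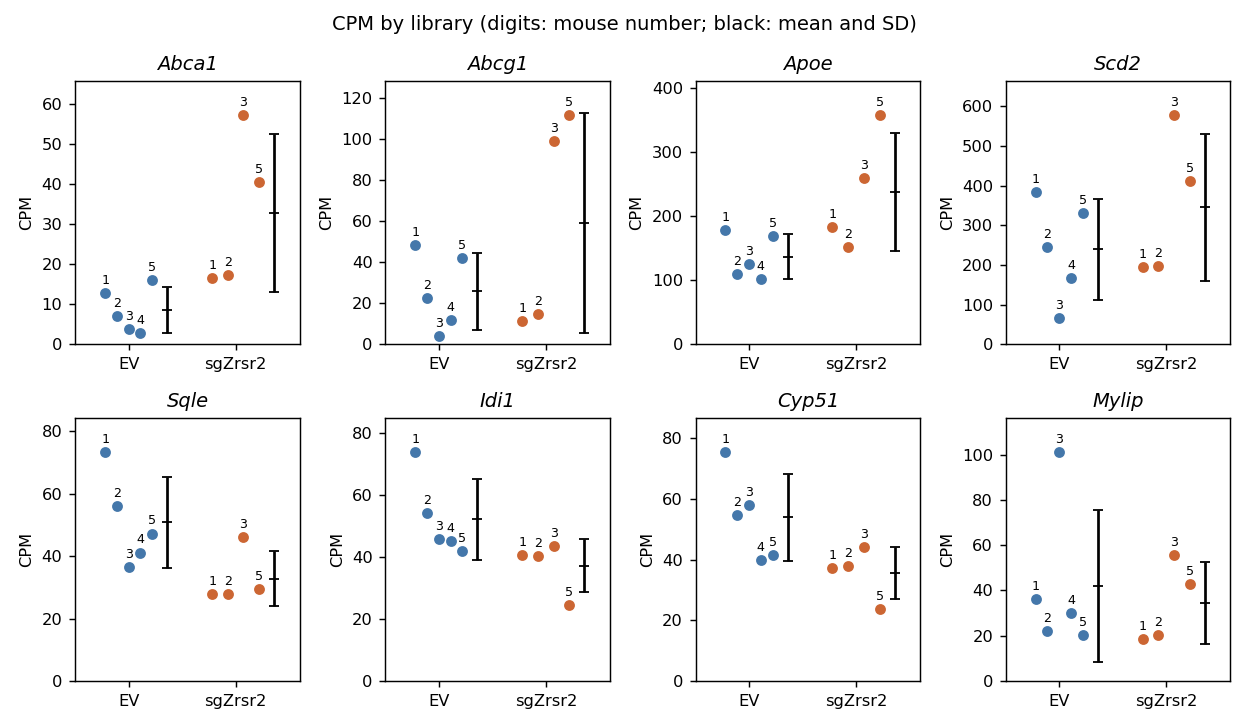
CPM of 8 of the genes in each library, EV in blue and sgZrsr2 in orange, with mouse numbers as digits and the mean and SD of each group in black, each axis from 0. Abca1 and Abcg1 are highest in sgZrsr2 mice 3 and 5, and Sqle, Idi1 and Cyp51 are highest in EV mouse 1.

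The high values of Abca1, Abcg1, Apoe and Scd2 in sgZrsr2 mice 3 and 5 stood beside high levels of most early megakaryocyte and erythroid genes in the same libraries. The summed level of 6 megakaryocyte markers was 355 and 461 CPM in sgZrsr2 mice 3 and 5, 286 CPM in EV mouse 5 and 121 to 276 CPM in the other 6 libraries. The summed level of 8 erythroid markers was 133 and 74.1 CPM in sgZrsr2 mice 3 and 5, 66.1 CPM in EV mouse 5 and 17.7 to 51.2 CPM in the others. Single genes made up much of some sums, and not all markers ran alike. Itga2b gave 263 of the 276 CPM in EV mouse 4. Hbb-bt gave 46.2 of the 51.2 CPM in sgZrsr2 mouse 1, but 5.59 of the 74.1 CPM in sgZrsr2 mouse 5. EV mouse 5 was the highest of the EV libraries for Abca1, at 16.1 CPM, and second to EV mouse 1 for Abcg1, Apoe and Scd2. The part of these cell types in the result was not tested.

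Macrophages are cells with strong cholesterol efflux, so their markers were read too. Their 10 markers summed to 61.8 to 152 CPM in the EV group and 69.5 to 161 CPM with sgZrsr2, most of it from Csf1r, which progenitors also express. The sum was highest in sgZrsr2 mouse 5. Marco was at 0 in every library, Mertk at 0.582 CPM or less, Spic at 1.73 CPM or less, and Adgre1, C1qa, C1qb and C1qc at 3.58 CPM or less. Mertk, Adgre1, Vcam1 (8.52 CPM) and the C1q genes were highest in EV mouse 5. Cd163, at 4.82 to 13.2 CPM with EV, was highest in sgZrsr2 mice 3 and 5, at 16.6 and 15.5 CPM, the libraries also highest in Abca1, and Spic was highest in sgZrsr2 mouse 3. The 7 mature neutrophil markers summed to 194 CPM in sgZrsr2 mouse 3, 168 CPM in EV mouse 5 and 24.8 CPM in sgZrsr2 mouse 5, and the part of macrophages and neutrophils was not tested either.

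Setting synthesis against efflux within each library, the mean log2 CPM of the 18 enzymes minus that of the 6 LXR and efflux genes was 0.22, 0.50, 0.13, 0.37 and -0.35 across EV mice 1 to 5. It was -0.37, -0.36, -1.18 and -1.43 across sgZrsr2 mice 1, 2, 3 and 5, so sgZrsr2 mouse 2 lay only just below EV mouse 5. Since Abca1 was chosen for its difference, the same was computed with the other 5 genes. The difference was then 0.00, 0.23, -0.29, -0.14 and -0.50 in the EV mice and -0.47, -0.43, -1.16 and -1.47 in the sgZrsr2 mice, and the groups overlapped. The median log2 fold change of the efflux arm was 0.67 with Abca1 and 0.54 without it, and 0.19 and -0.01 when EV mouse 5 and sgZrsr2 mice 3 and 5 were left out. The 18 enzymes had a median of -0.43 in that fit, with 17 of 18 below 0. That fit was added after the data were seen and keeps only mice 1 and 2 of the sgZrsr2 group. The sgZrsr2 mice it leaves out were those highest in Abca1 and Abcg1.

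**Figure D5:**
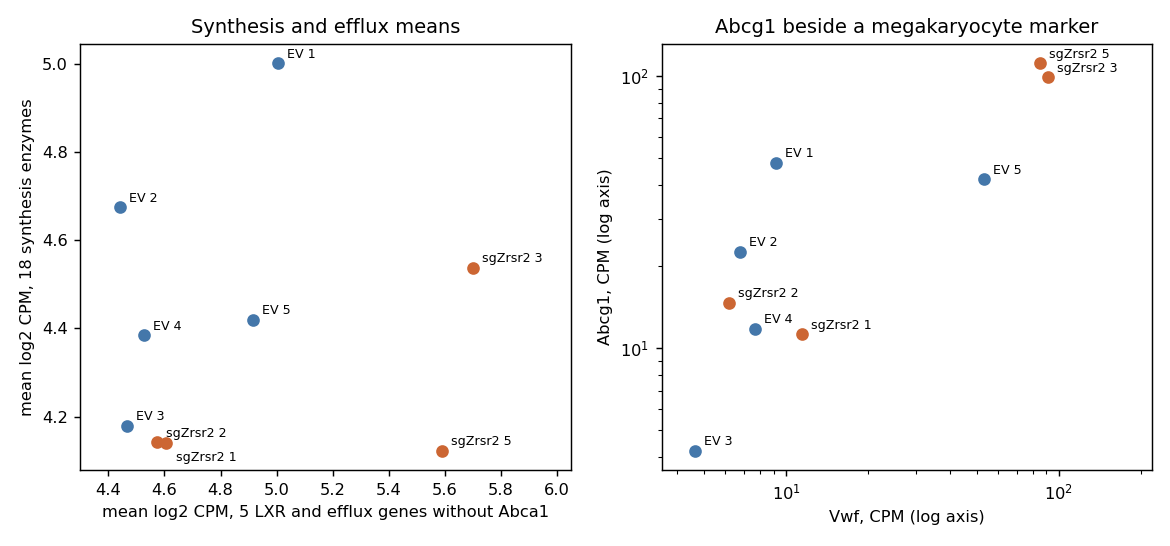
Left, the mean log2 CPM of the 18 synthesis enzymes against that of the 5 LXR and efflux genes other than Abca1 in each library. Right, Abcg1 against the megakaryocyte marker Vwf in CPM, both on log axes. SgZrsr2 mice 3 and 5 lie to the right in both panels, and sgZrsr2 mice 1 and 2 lie low for synthesis and among the EV libraries for Abcg1.

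Another 55 genes of the pathway were listed for comparison, and 53 were tested. The median log2 fold change was 0.03, with 30 above 0 and 23 below, and 0 passed the adjusted threshold in edgeR (adjusted p 0.714 or more) while 5 had an unadjusted p under 0.05, where 6.85% of all genes did. Tmem97, a sterol-binding membrane protein that SREBP switches on, was at 48.9, 49.4, 54.8, 78.6 and 49.8 CPM across EV mice 1 to 5 and at 41.7, 39.5, 31.1 and 42.2 CPM across sgZrsr2 mice 1, 2, 3 and 5. There was no overlap between the groups, as for 1.32% of all genes in this direction, and the log2 fold change was -0.54 (SE 0.17). Unlike Sqle, Idi1 and Cyp51 it was lowest in sgZrsr2 mouse 3 and not highest in EV mouse 1.

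Abca7, a transporter related to Abca1, varied least within EV of these 5 genes, at 199 to 205 CPM. It was at 233, 230, 249 and 260 CPM across sgZrsr2 mice 1, 2, 3 and 5, a log2 difference of 0.27 (SE 0.09), and unlike Abcg1 it was higher in mice 1 and 2 as well. Osbpl2, an oxysterol-binding protein, was at 25.0 to 31.7 CPM in the EV group and 32.1 to 39.0 CPM with sgZrsr2 (log2 fold change 0.28, SE 0.12). Abca7 and Osbpl2 were among 3 of the 53 tested comparison genes that were higher without overlap, where 1.75% of all genes were. Smpdl3a, an LXR target, and Acss2, which makes acetyl-CoA and is an SREBP target, had log2 fold changes of 0.35 (SE 0.15) and 0.48 (SE 0.21), and their groups overlapped.

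By role, the 10 genes of SREBP processing had a median log2 fold change of 0.11, the 8 of the isoprenoid branch and sterol helpers -0.11, and the 11 fatty acid targets 0.01. The 15 genes of uptake, storage and movement had 0.09, and the 9 tested LXR partners and targets 0.19. All these medians lie nearer to 0 than those of the 18 enzymes and the efflux arm. The members were chosen with earlier results of this contrast known, and Abca1 for its difference. That choice may have favoured medians further from 0, and the difference was not tested.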

How the data were processed

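RNA from sorted LSK cells of 9 mice was sequenced after selection of polyadenylated RNA from 5 ng of total RNA, per the labels' protocols. The authors deposited RSEM expected counts per Ensembl gene, which are estimated counts with no normalization. The submitters' processing notes name cutadapt 1.11, RSEM 1.2.30 and GRCm38; the aligner, annotation release and strandedness are not given in the sources used here. RSEM divides reads between genes that share sequence. Of the 30 members 21 had whole counts in all 9 libraries (within 0.005), and Acat2, Idi1, Fdps, Fdft1 and Tm7sf2 had them in none. Npc1, Scd2 and Lss had them in 1, 2 and 3 libraries, and Srebf1 in 8. The levels of genes with whole counts in few or no libraries are less certain. Mvd, Fdft1, Srebf1 and Npc1 overlap an expressed gene on the opposite strand, and reads of the partners cannot be told apart without strand.

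Counts were rounded and filtered with filterByExpr (minimum count 10, total 15; 99.93% of counts kept), scaled by TMM, and compared with edgeR 4.0.16 (glmQLFit, glmQLFTest, R 4.3.3) with adjustment over all 14944 genes. The SE is the log2 fold change divided by the square root of F. List means use log2 CPM with a prior count of 2. The test was checked on simulated counts. The alternatives, with DESeq2 1.42.0 and limma 3.58.1 among them, are listed in the closing part. The fit without EV mouse 5 and sgZrsr2 mice 3 and 5 was added after seeing the data. Of the sgZrsr2 group it keeps only mice 1 and 2. The members and lists were chosen with earlier results of these data known. All 30 members are named; of the other pathway genes those with an unadjusted p under 0.05.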

Additional observations from a re-analysis of the deposited data

Results flagged for a closer look

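Each of the 30 genes and both list means was examined in the EV and the sgZrsr2 group for a library far from the others, by its gap to the nearest library relative to the spread of the group. Among the 64 sets examined 8 stood out. About 3.2 would be expected at 1 in 20 if values within a group were normally distributed, which was not tested. The share over all genes was not computed. In sgZrsr2 mouse 3, Sqle was at 46.0 CPM (27.8 to 29.6 CPM in the other sgZrsr2 mice), Npc1 at 74.7 CPM (64.8 to 66.4), Nr1h2 at 175 CPM (151 to 153) and the mean log2 CPM of the 18 enzymes at 4.54 (4.12 to 4.14). In sgZrsr2 mouse 5, Idi1 was low at 24.5 CPM, against 40.2 to 43.4 CPM. In EV mouse 3, Nr1h2 was at 198 CPM (136 to 142 in the other EV mice) and Mylip at 101 CPM (20.3 to 36.1). In EV mouse 1, Msmo1 was at 41.2 CPM, against 13.0 to 21.1 CPM.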

How the results depend on the processing

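In the fit reported above, and in all alternatives but 2, 0 genes passed the adjusted threshold; the exceptions were DESeq2 (16 genes, 7 higher and 9 lower) and the fit with sgZrsr2 mice 1 and 2 averaged (1 gene, higher); the cause was not tested. The count at an unadjusted p under 0.05 was 1024, and 2551 with limma-voom and quality weights, 1692 without EV mouse 5 and sgZrsr2 mice 3 and 5, and 609 without EV mouse 4. The median log2 fold change of the 18 enzymes stayed below 0 in all alternatives, from -0.45 to -0.22 over fits that left out a library. That of the efflux arm ran from 0.57 to 0.80 over these fits, and without Abca1 from 0.37 to 0.71, turning to -0.013 without EV mouse 5 and sgZrsr2 mice 3 and 5. Of the single genes, that fit also turned Abcg1 (-0.72), Nr1h2 (-0.013), Nsdhl (-0.019), Scd2 (-0.12) and Srebf1 (-0.079). Limma-voom with quality weights turned Abcg1 (-0.039), Npc1 (-0.10), Nsdhl (-0.0895) and Scd2 (-0.11). Averaging sgZrsr2 mice 1 and 2 turned Lss (0.031) and Srebf2 (0.0099), and library totals turned Srebf2 (0.0062). Fits that left out a library ran from -0.39 to 0.14 for Lss, -0.62 to 0.34 for Mylip, -0.0021 to 0.17 for Npc1, -0.046 to 0.051 for Nsdhl, -0.20 to 0.0285 for Srebf2 and -0.28 to 0.037 for Stard4. In 660 of 684 comparisons of a named gene with an alternative the sign stayed. Several alternatives changed only the scaling, the filter or the rounding. Abca1 and the other pathway genes were named for their difference in this contrast, so the count does not measure robustness. The mouse number as a replicate block, which leaves out EV mouse 4, called 0 genes (333 at an unadjusted p under 0.05) and gave medians of -0.33 for the enzymes and 0.65 for the efflux arm. Same-numbered mice did not deviate together (correlations -0.17, -0.03, -0.47 and 0.39 for mice 1, 2, 3 and 5), so the numbers were not read as pairs. Depth limits Nr1h3 most, at 14 to 60 counts.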
